A study of Homo sapiens with 14 samples.

Results

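The genes described here encode the retinoblastoma family of pocket proteins (RB1, RBL1 and RBL2), the MuvB core (LIN9, LIN37, LIN52 and LIN54) and the activators that join this core (MYBL2 and FOXM1). They were chosen by name as components of these complexes, and are 9 of the 26732 genes listed in both count tables. Their mRNA was measured by RNA sequencing in A549 and H1792, established human lung adenocarcinoma cell lines. Cells were given DMSO, the solvent, or 0.1 µM AMG900, an inhibitor of the aurora kinases, and were collected after 48 h. The groups held 4 A549 DMSO, 4 A549 AMG900, 3 H1792 DMSO and 3 H1792 AMG900 libraries. A549 was grown in DMEM and H1792 in RPMI 1640, each line has its own count table, and 1 dose and 1 time were used. The comparison asks which transcripts change when aurora kinases, studied here as regulators of tumour cell invasion, are inhibited.

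Pocket proteins restrain the cell cycle by binding E2F factors at the promoters of genes needed for DNA synthesis. In cells that are not dividing, RBL1 or RBL2 joins the MuvB core, E2F4 or E2F5 and a DP partner in the repressor complex DREAM, which holds down genes of both S phase and mitosis. In dividing cells the core leaves the pocket protein and joins MYBL2 (B-MYB) as the MMB complex, and FOXM1 then joins to activate mitotic genes. The letters that E2F factors favour lie in many S phase promoters, and the CHR element, bound by LIN54 of the core, lies in many mitotic ones. RBBP4 is the remaining subunit of the core, and the kinase DYRK1A favours assembly of DREAM by acting on LIN52.

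Several of these genes hold E2F letters within the 250 bases before their own start, and these windows are shown first because the genes' products act at such letters. Promoters were read from RefSeq on build GRCh38.p14, where 8 of the 9 genes matched, with 13 start sites. FOXM1 had no entry, so its promoter was not searched. The 250 bases before each start were searched on both strands. The E2F letters searched were TTTCCCGC, TTTCGCGC, TTTGCCGC, TTTGGCGC and GGCGGGA, of which the last overlaps the reverse of the first. At least 1 of these occurred in RBL1, LIN9, LIN37, LIN52, LIN54 and MYBL2, or 6 of the 8 genes searched, against 15.2% of all 35116 promoters in the table. The CHR letters searched were TTTGAA and TTCGAA. They occurred in LIN9, LIN37 and LIN54, or 3 of the 8 genes searched, against 14.3% of all promoters. Genes have from 1 to 3 start sites and the share over all promoters is per start site. The motifs were chosen after these promoters had been read, and a match is a run of letters, not a measured binding site. The windows nearest the start are written 5′ to 3′ on the strand of the gene with the matched letters in capitals.

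MYBL2: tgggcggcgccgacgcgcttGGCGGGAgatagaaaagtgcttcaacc

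RBL1: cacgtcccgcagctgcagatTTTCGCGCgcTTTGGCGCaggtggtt

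LIN52: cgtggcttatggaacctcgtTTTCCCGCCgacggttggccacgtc

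LIN54: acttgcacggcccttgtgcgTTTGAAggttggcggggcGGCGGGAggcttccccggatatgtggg

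LIN37: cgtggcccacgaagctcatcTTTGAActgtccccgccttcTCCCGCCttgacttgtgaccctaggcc

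LIN9: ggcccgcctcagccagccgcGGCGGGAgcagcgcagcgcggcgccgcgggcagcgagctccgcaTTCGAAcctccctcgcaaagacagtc

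The MYBL2 window lies at chr20:43667055-43667101 (+), and its E2F letters begin 39 bases before the start. The RBL1 window lies at chr20:37095998-37096043 (−), with matches that begin 26 and 16 bases before the start, and a further match begins 210 bases before it. The LIN52 window lies at chr14:74084911-74084955 (+), and its run of letters begins 25 bases before the start. In LIN54, at chr4:83010879-83010943 (−), and in LIN37, at chr19:35748612-35748678 (+), CHR letters stand beside E2F letters. The LIN54 pair falls within the window of both start sites listed for this gene, while the LIN37 pair belongs to 1 of 2 start sites. The LIN54 E2F letters begin 82 and 71 bases before these starts and the CHR letters 100 and 89 bases. In LIN37 the E2F letters begin 162 bases and the CHR letters 182 bases before the start. The LIN9 window, at chr1:226309199-226309288 (−), belongs to 1 of 3 start sites listed. Its E2F letters begin 104 bases and its CHR letters 60 bases before the start, and a further E2F match begins 217 bases before it. No letters of either kind were matched in the RBL2 windows or in the window listed for RB1, whose start lies 172699 bases inside the gene.

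Total counts per library ranged from 4254644 to 18962883 in A549 and from 42760874 to 79902934 in H1792, and A549 DMSO replicate 1 was the smallest library. The keratins KRT7, KRT8 and KRT18, which mark epithelial cells, were between 246 and 5413 CPM (read counts scaled to a common library total) in both lines, and KRT19 was between 20.3 and 86.2 CPM in A549 and between 5.79 and 10.2 CPM in H1792. EPCAM, another epithelial marker, was at most 0.539 CPM in A549, and CDH1 was at most 1.04 CPM in H1792. The defining immune markers PTPRC and CD3E were at most 0.0945 CPM, while in H1792 the fibroblast markers DCN and LUM were at 20.8 to 32.2 and 1.66 to 5.31 CPM and the endothelial marker PECAM1 was at 3.59 to 8.13 CPM. These 3 and the endothelial marker CDH5 were at most 0.485 CPM in A549, CDH5 was at most 0.467 CPM in H1792, and the macrophage marker CD68 was between 58.3 and 192 CPM over both lines. Log2 fold changes are given with their standard error (SE) from the edgeR quasi-likelihood test, and a gene is called a DEG where the p-value adjusted by the Benjamini-Hochberg method over all genes tested in the comparison is below 0.01. The p-values measure the spread between the cultures listed and cover no other source of variation.

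In A549, AMG900 downregulated 6 of the 9 genes (RBL1, RBL2, LIN9, LIN54, MYBL2 and FOXM1) and upregulated LIN37 alone. The background in A549 was 17.8% of 13174 genes downregulated, 17.2% upregulated and 35.0% called either way. In H1792, 5 genes were downregulated (RB1, RBL1, LIN9, MYBL2 and FOXM1), against 18.8% of the 15017 genes tested, and 35.1% of them were called either way. None was upregulated by edgeR at this threshold in H1792, where 16.2% of all genes were, although LIN37 was higher at an unadjusted p under 0.05 and was 1 upregulated gene with DESeq2. The median log2 fold change of the 9 genes was -1.41 in A549 and -0.33 in H1792, beside -0.01 and 0.01 over all genes. All 9 genes passed the filter on low counts in both lines, but LIN9 passed in A549 through its DMSO libraries, since 4 DMSO and only 2 AMG900 libraries reached the minimum of 0.729 CPM. Without LIN9, 5 of 8 genes were downregulated in A549, with a median log2 fold change of -1.25.

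**Figure D1:**
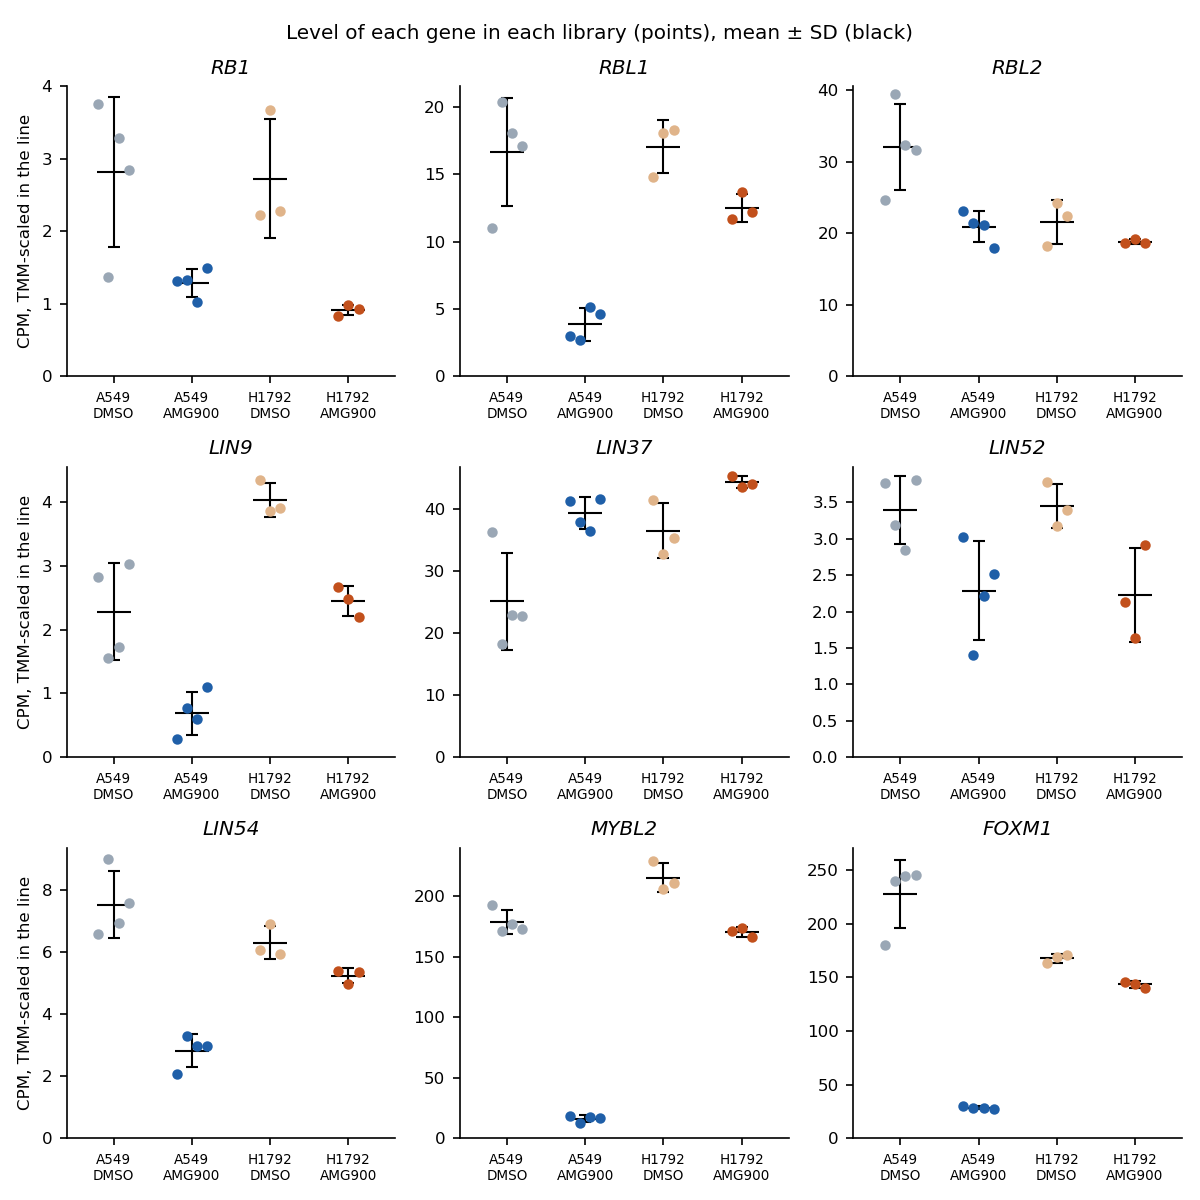
Level of each of the 9 genes in CPM (y axis, from 0, scaled by TMM within a line) in the 4 groups of libraries (x axis). Each point is a library and the black marks are the mean ± SD. MYBL2 and FOXM1 stand at 12.4 to 30.3 CPM in the A549 AMG900 libraries and at 171 CPM or more in the A549 DMSO libraries, while every AMG900 library is above every DMSO library for LIN37 in both lines, a direction that a GC correction turns in H1792 (log2 fold change -0.03).

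**Figure D2:**
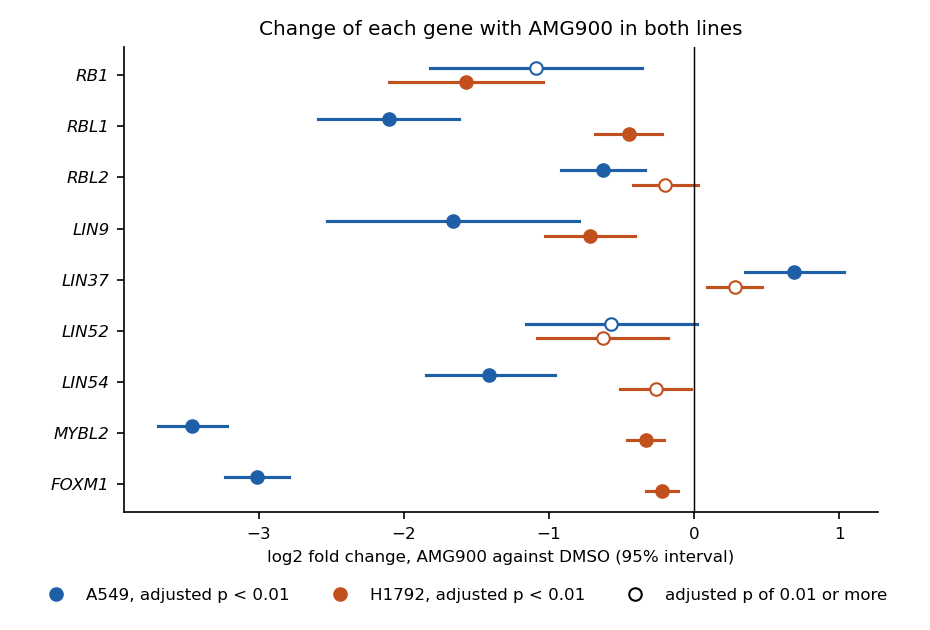
Log2 fold change with AMG900 against DMSO (x axis) for each gene (y axis) in A549 (blue) and H1792 (orange), with 95% intervals as lines. Filled points have an adjusted p below 0.01. The A549 changes of MYBL2 (-3.46) and FOXM1 (-3.01) lie farthest from 0, and LIN37 is the gene on the positive side in both lines, though not in H1792 after a GC correction.

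RB1, the retinoblastoma tumour suppressor, binds the activator E2F factors and blocks entry into S phase. The gene lies at chr13:48877880-49173572 (+) on GRCh37 and has 27 exons. In A549 it stood at 3.76, 1.37, 3.29 and 2.85 CPM with DMSO and at 1.32, 1.33, 1.02 and 1.49 CPM with AMG900. The groups overlapped, because DMSO replicate 2 lay among the AMG900 libraries, and each library held only 14 to 48 reads. The log2 fold change in A549 was -1.09 (SE 0.34) and missed the threshold with edgeR (adjusted p = 0.0162), with a 95% interval from -1.82 to -0.36. DESeq2 gave an adjusted p of 0.00968, just under the threshold. In H1792 RB1 stood at 2.22, 3.67 and 2.28 CPM with DMSO and at 0.836, 0.978 and 0.934 CPM with AMG900. Every H1792 AMG900 library was below every DMSO library, and RB1 was downregulated 2.97-fold (log2 fold change -1.57, SE 0.24, adjusted p = 3.8e-04 with edgeR). RB1 was the member with the most negative log2 fold change in H1792, at 49 to 179 reads per library.

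RBL1 (p107) is the pocket protein that rises in cycling cells and is itself controlled by E2F. It lies at chr20:35624752-35724400 (−) on GRCh37, and its promoter holds the E2F letters printed above. In A549 it fell from 11.0, 20.4, 18.1 and 17.1 CPM to 3.02, 2.67, 5.18 and 4.65 CPM, a 4.29-fold decrease (log2 fold change -2.10, SE 0.23, edgeR adjusted p = 3.7e-06). The groups did not overlap, and the smallest library, DMSO replicate 1, was the lowest of the controls. In H1792 RBL1 stood at 14.8, 18.1 and 18.3 CPM with DMSO and at 11.7, 13.7 and 12.2 CPM with AMG900. These groups did not overlap either, but the decrease was 1.36-fold (log2 fold change -0.45, SE 0.10, edgeR adjusted p = 0.00491), and 4 of the 6 fits that each left out 1 H1792 library lost the call, with adjusted p up to 0.0304.

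RBL2 (p130) is the pocket protein that predominates in DREAM of resting cells. It lies at chr16:53467889-53525560 (+) on GRCh37, and 20.4% of its exonic bases are shared with other genes, among them AKTIP on the opposite strand. In A549 it stood at 24.7, 39.5, 32.4 and 31.6 CPM with DMSO and at 23.1, 21.5, 21.1 and 17.9 CPM with AMG900. RBL2 was downregulated 1.55-fold (log2 fold change -0.63, SE 0.14, edgeR adjusted p = 0.00148), and the gap between the groups was the step from 23.1 to 24.7 CPM. In H1792 the levels were 18.2, 24.2 and 22.4 CPM with DMSO and 18.6, 19.2 and 18.6 CPM with AMG900. These groups overlapped, and the log2 fold change was -0.20 (95% interval -0.42 to 0.03, edgeR adjusted p = 0.127).

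Per kb of transcript, which allows levels to be set side by side between genes, RBL2 exceeded RBL1 in every group. In A549 DMSO, RBL2 stood at 6.31 ± 1.19 and RBL1 at 2.80 ± 0.676 CPM per kb (SD, n = 4). In A549 AMG900, RBL2 stood at 4.35 ± 0.407 and RBL1 at 0.690 ± 0.220 CPM per kb (SD, n = 4). In H1792 the levels with AMG900 were 3.98 ± 0.0765 for RBL2 and 2.26 ± 0.187 CPM per kb for RBL1 (SD, n = 3), after 4.56 ± 0.643 and 3.07 ± 0.350 CPM per kb with DMSO. The RBL2 and RBL1 libraries did not overlap in any of the 4 groups. RB1 had the lowest or second lowest level per kb in every group, between 0.197 and 0.585 CPM per kb as group means.

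LIN9, a scaffold subunit of the MuvB core, lies at chr1:226418850-226497570 (−) on GRCh37. In A549 it stood at 2.82, 1.55, 1.72 and 3.03 CPM with DMSO and at 0.283, 0.772, 0.593 and 1.10 CPM with AMG900. The groups did not overlap, and the log2 fold change was -1.66 (SE 0.41, a 3.16-fold decrease, edgeR adjusted p = 0.00386). LIN9 passed the filter on low counts in A549 only through its DMSO libraries, where it was higher. No conclusion is therefore drawn from this call or from the lack of overlap. The A549 counts were 3 to 51 reads per library. In 4 of the 8 fits that each left out 1 library the call was lost, with edgeR adjusted p up to 0.0231 without DMSO replicate 4. In H1792, at 124 to 284 reads per library, LIN9 stood at 4.34, 3.86 and 3.90 CPM with DMSO and at 2.66, 2.48 and 2.20 CPM with AMG900. It was downregulated 1.65-fold there (log2 fold change -0.72, SE 0.14, edgeR adjusted p = 0.00182), a call lost without AMG900 replicate 3 (adjusted p = 0.0106).

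LIN37 is the core subunit needed for repression by DREAM, and its log2 fold change was positive in both lines, where the other 8 genes had negative ones, but turned to -0.03 in H1792 with a GC content offset. It lies at chr19:36239262-36245420 (+) on GRCh37. In A549 it stood at 36.4, 18.3, 23.0 and 22.8 CPM with DMSO and at 41.4, 38.0, 36.5 and 41.6 CPM with AMG900. LIN37 was upregulated 1.62-fold (log2 fold change 0.69, SE 0.16, edgeR adjusted p = 0.00241), and DMSO replicate 1, at 36.4 CPM, lay just under the lowest AMG900 library. Without DMSO replicate 2 the log2 fold change was 0.57 with an adjusted p of 0.0101. In H1792 the levels were 41.5, 32.8 and 35.3 CPM with DMSO and 45.4, 43.6 and 44.1 CPM with AMG900. The H1792 groups did not overlap, but the log2 fold change of 0.28 (95% interval 0.09 to 0.47) missed the threshold with edgeR (adjusted p = 0.0187). A protein-coding gene on the same strand and a long noncoding RNA gene on the opposite strand share 80.4% of the exonic bases of LIN37. The strand setting of the counting is not given in the sources used here, so reads of these genes cannot be told apart.

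LIN52, the subunit through which DYRK1A acts on the core, lies at chr14:74551659-74668196 (+) on GRCh37. In A549 it stood at 3.76, 3.19, 2.84 and 3.80 CPM with DMSO and at 3.02, 1.40, 2.21 and 2.52 CPM with AMG900, and the groups overlapped. Its log2 fold change was -0.57 (95% interval -1.16 to 0.02, edgeR adjusted p = 0.103). In H1792 it stood at 3.78, 3.18 and 3.40 CPM with DMSO and at 2.13, 1.64 and 2.91 CPM with AMG900. These groups did not overlap, and the log2 fold change of -0.63 (95% interval -1.08 to -0.18) missed the threshold with edgeR (adjusted p = 0.0241), while DESeq2 gave an adjusted p of 0.00936.

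LIN54, the DNA-binding subunit that contacts the CHR element, lies at chr4:83831126-83934079 (−) on GRCh37. In A549 it fell from 6.58, 9.01, 6.95 and 7.60 CPM to 2.08, 3.30, 2.97 and 2.97 CPM. Each AMG900 library was below every DMSO library, and the decrease was 2.65-fold (log2 fold change -1.41, SE 0.21, edgeR adjusted p = 6.9e-05). The call held in all 8 fits that left out 1 A549 library, with log2 fold changes from -1.48 to -1.30. In H1792 LIN54 stood at 6.07, 6.92 and 5.93 CPM with DMSO and at 5.39, 4.97 and 5.36 CPM with AMG900. The groups were apart, but the log2 fold change was -0.26 (95% interval -0.51 to -0.02, edgeR adjusted p = 0.0668).

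MYBL2 encodes B-MYB, the transcription factor that joins the MuvB core in S phase, and its promoter holds the E2F letters printed above. The gene lies at chr20:42295659-42345135 (+) on GRCh37. In A549 it fell from 193, 171, 177 and 173 CPM to 18.5, 12.4, 17.2 and 16.9 CPM, an 11.0-fold decrease (log2 fold change -3.46, SE 0.11, edgeR adjusted p = 1.1e-11). In H1792 it stood at 229, 206 and 211 CPM with DMSO and at 171, 174 and 166 CPM with AMG900. This decrease was 1.26-fold (log2 fold change -0.33, SE 0.06, edgeR adjusted p = 7.1e-04), with no overlap between the groups. Scaled over both lines, the MYBL2 level left with AMG900 was 171 to 179 CPM in the H1792 libraries and 12.6 to 18.5 CPM in the A549 libraries. In these bulk libraries, fewer cells with a transcript and less of the transcript in each cell cannot be told apart.

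FOXM1, the forkhead factor that joins MMB to activate mitotic genes, lies at chr12:2966846-2986340 (−) on GRCh37, and 22% of its exonic bases are shared with ITFG2 on the opposite strand. In A549 it fell from 180, 240, 244 and 245 CPM to 30.3, 27.9, 28.3 and 26.9 CPM, an 8.06-fold decrease (log2 fold change -3.01, SE 0.10, edgeR adjusted p = 2.1e-11). DMSO replicate 1 was the lowest of the control libraries and still far above the AMG900 libraries. In H1792 FOXM1 stood at 163, 169 and 171 CPM with DMSO and at 146, 144 and 140 CPM with AMG900. The groups did not overlap and the decrease was 1.17-fold (log2 fold change -0.22, SE 0.05, edgeR adjusted p = 0.00387), a call lost in 4 of the 6 fits that left out 1 H1792 library (adjusted p up to 0.0259) and with a replicate block (adjusted p = 0.0139).

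The groups of 6 of the 9 genes lay apart on the lower side in A549, where 22.0% of all genes did so, and LIN37 lay apart on the higher side, as 21.9% did. LIN9, which passed the filter in A549 only through its DMSO libraries, is among these 6. In H1792, 7 genes lay apart on the lower side and LIN37 on the higher side, beside 29.6% and 30.1% of all genes.

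The difference between the lines was tested directly, by the line-by-treatment interaction term of 1 fit over 14 libraries. The decrease was smaller in H1792 than in A549 for MYBL2, FOXM1, RBL1 and LIN54, or 4 of 9 genes, while 5.37% of the 14769 genes tested had a significantly higher log2 fold change in H1792 and 14.5% differed in either direction. The differences in log2 fold change, H1792 minus A549, were 3.05 (SE 0.13, edgeR adjusted p = 2.5e-12) for MYBL2 and 2.71 (SE 0.13, edgeR adjusted p = 8.1e-12) for FOXM1. They were 1.59 (SE 0.27, edgeR adjusted p = 2.4e-04) for RBL1 and 1.07 (SE 0.23, edgeR adjusted p = 0.00195) for LIN54. These 4 calls held in each of the 14 fits that left out 1 library. None of the 9 genes had a significantly lower log2 fold change in H1792 with edgeR or DESeq2, beside 9.17% of all genes called with edgeR. At an unadjusted p under 0.05 with edgeR, 1 of the 9 was lower, a looser threshold than that of the 9.17%.

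For the other 5 genes the difference missed the threshold, and the intervals leave room for sizeable differences. The 95% interval of the difference ran from -1.45 to 0.34 for RB1, from -0.02 to 0.75 for RBL2 and from -0.01 to 1.73 for LIN9. It ran from -0.86 to 0.59 for LIN52. The LIN37 interval, from -0.91 to -0.09, excluded 0 (difference -0.50, edgeR adjusted p = 0.0735), and without A549 DMSO replicate 1 the difference was -0.66 with an adjusted p of 0.00112. RB1, called by edgeR in H1792 alone and by DESeq2 in both lines, is thus not shown to have changed more in H1792 than in A549 (difference -0.56, edgeR adjusted p = 0.37).

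GC content moved with these changes. The log2 fold change was greater for genes of higher transcript GC content, with a Spearman's rho across genes of 0.50 (12770 genes) in A549 and 0.48 (14375 genes) in H1792, and of -0.08 for the difference between the lines. Genes are not independent replicates, so no p is given. The members span a wide range of GC content: LIN9 (34.9%), RB1 (37.1%), LIN54 (39.1%) and RBL1 (40.0%) are poor in GC, LIN52 (42.7%) and RBL2 (42.8%) follow, and FOXM1 (55.7%), LIN37 (59.8%) and MYBL2 (60.0%) are rich in it. In H1792 the 276 genes within 1 point of LIN9 in GC content had a median log2 fold change of -0.70, beside -0.72 for LIN9 itself. The 904 genes near LIN37 had a median of 0.23, beside 0.28 for LIN37. In contrast, the 747 A549 genes near MYBL2 had a median of 0.32, beside -3.46 for MYBL2.

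With a GC content offset for each library, RBL1 (-1.69), LIN54 (-0.96), MYBL2 (-3.84) and FOXM1 (-3.26) stayed downregulated in A549, while RBL2 (-0.35, edgeR adjusted p = 0.0256), LIN9 (-1.14, edgeR adjusted p = 0.0384) and LIN37 (0.33, edgeR adjusted p = 0.0872) lost the call. In H1792, RB1 (-1.03, edgeR adjusted p = 0.00225), MYBL2 (-0.65) and FOXM1 (-0.45) stayed downregulated. RBL1 (-0.10, edgeR adjusted p = 0.359) and LIN9 (-0.04, edgeR adjusted p = 0.851) lost the call, and the uncalled values of RBL2 (0.01), LIN37 (-0.03) and LIN54 (0.14) changed sign. The 4 differences between the lines were called with the offset as well. Downregulation of MYBL2 and FOXM1 in both lines was thus larger with the offset than without it.

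**Figure D3:**
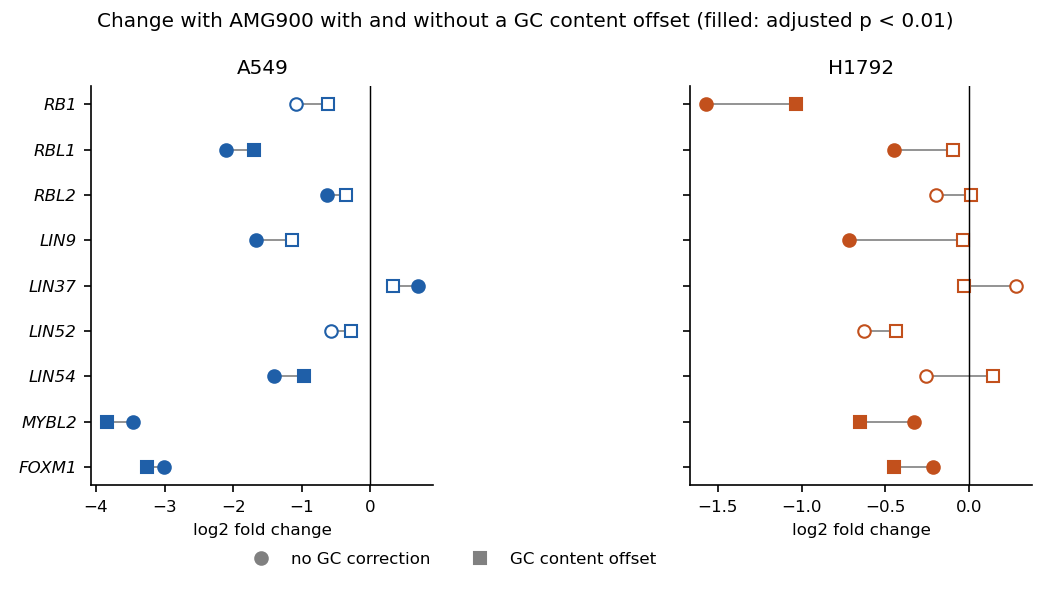
Log2 fold change with AMG900 (x axis) of each gene (y axis) in A549 (left) and H1792 (right, on its own scale), without a GC correction (circles) and with a GC content offset (squares). Filled points have an adjusted p below 0.01. The GC-poor genes move toward 0 with the offset and the GC-rich MYBL2 and FOXM1 move away from it, from -0.33 to -0.65 for MYBL2 in H1792.

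In DMSO the lines differed for 5 of the 9 genes, beside 66.1% of all genes. LIN9 (log2 difference 0.94, H1792 minus A549, SE 0.27, edgeR adjusted p = 0.00381), LIN37 (0.70, SE 0.14, edgeR adjusted p = 2.2e-04) and MYBL2 (0.37, SE 0.09, edgeR adjusted p = 6.4e-04) were higher in H1792, as were 34.2% of all genes. RBL2 (-0.49, SE 0.13, edgeR adjusted p = 0.0021) and FOXM1 (-0.35, SE 0.09, edgeR adjusted p = 0.00141) were lower in H1792, as were 31.9% of all genes. Every H1792 DMSO library was above every A549 one for LIN9 and MYBL2, as for 36.3% of all genes, and the lines overlapped for the other 7 genes, while 32.0% of all genes lay wholly lower in H1792. No difference passed the threshold for RB1 (95% interval -0.51 to 0.69), RBL1 (-0.28 to 0.47), LIN52 (-0.37 to 0.64) or LIN54 (-0.50 to 0.15). With the GC content offset only LIN37 and FOXM1 kept their call, and line, medium, table and depth cannot be told apart in this comparison.

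Per kb of transcript, MYBL2 (64.0 ± 3.19 CPM per kb, SD, n = 4) and FOXM1 (61.3 ± 9.07) were the most abundant of these transcripts in A549 DMSO, and their libraries overlapped. LIN37 followed at 25.7 ± 7.79 CPM per kb, then RBL2 and RBL1, and LIN54, LIN52, LIN9 and RB1 were all at 1.39 CPM per kb or less with each overlapping the next. In A549 AMG900 the order was led by LIN37 (42.5 ± 2.94 CPM per kb), with FOXM1 at 8.06 ± 0.316 and MYBL2 at 6.16 ± 0.986 CPM per kb (SD, n = 4). Here FOXM1 and LIN37 did not overlap their lower neighbours, while the MYBL2 and RBL2 libraries overlapped. In H1792 DMSO, MYBL2 led at 82.6 ± 4.91 CPM per kb, above FOXM1 at 48.3 ± 1.16 and LIN37 at 40.0 ± 4.98 CPM per kb (SD, n = 3). With AMG900 in H1792, MYBL2 (65.7 ± 1.51 CPM per kb) stayed first and LIN37 (48.7 ± 0.968) stood above FOXM1 (41.5 ± 0.831). The LIN37 group means ran from 25.7 to 48.7 CPM per kb, and those of LIN9, LIN52 and LIN54 from 0.232 to 1.38 CPM per kb. LIN37 has a short transcript that shares most of its exonic bases with other annotated genes.

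**Figure D4:**
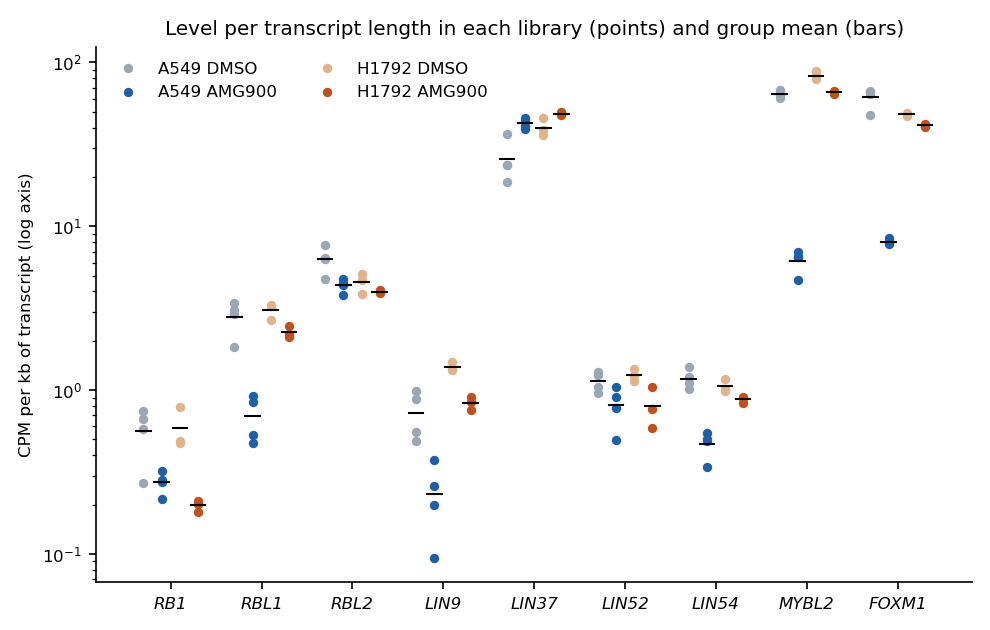
CPM per kb of transcript (y axis, log axis, scaled over both lines) of the 9 genes (x axis) in each library (points) and as group means (bars), for the 4 groups. The group means of LIN37, MYBL2 and FOXM1 stand above those of the pocket proteins in every group, although the MYBL2 and RBL2 libraries overlap in A549 AMG900, and MYBL2 and FOXM1 drop from 47.8 or more to 8.51 or less CPM per kb in A549.

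The other subunits and regulators of these complexes were described from lists named by their known role. These and the lists below were chosen with earlier results of these data known, so their counts are a description and not a test. Of 6 further DREAM partners (RBBP4, E2F4, E2F5, TFDP1, TFDP2 and DYRK1A), 4 were downregulated in A549 and 3 in H1792, beside 17.8% and 18.8% of all genes, with median log2 fold changes of -0.56 and -0.41. RBBP4, the histone-binding subunit of the core, had log2 fold changes of -0.41 (SE 0.11, edgeR adjusted p = 0.00588) in A549 and -0.53 (SE 0.10, edgeR adjusted p = 0.00123) in H1792. TFDP1, the DP partner of E2F factors, fell by 1.00 (SE 0.09, edgeR adjusted p = 3.1e-07) on the log2 scale in A549. DYRK1A had a log2 fold change of -0.74 (SE 0.14, edgeR adjusted p = 0.00151) in H1792. E2F4, the repressor E2F of DREAM, was not called in either line. Its levels were 109 ± 3.09 CPM with DMSO and 101 ± 8.52 CPM with AMG900 in A549 (SD, n = 4), with a 95% interval of the log2 fold change from -0.27 to 0.06. In H1792 they were 222 ± 17.7 and 204 ± 4.88 CPM (SD, n = 3), with an interval from -0.26 to 0.02.

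Of 14 regulators of pocket proteins (cyclins D and E, their kinases and the kinase inhibitors), 10 were tested in A549, where 5 fell and CDKN1A rose, beside 35.0% of all genes called either way. In H1792, 12 were tested, 4 fell and CDKN1A rose, near the 35.1% of all genes called either way. CDKN1A (p21), which inhibits the kinases that inactivate pocket proteins, stood at 504 ± 41.8 CPM with DMSO and 1679 ± 31.5 CPM with AMG900 in A549 (SD, n = 4), an increase of 1.73 on the log2 scale (SE 0.07, edgeR adjusted p = 6.5e-11). In H1792 it stood at 45.2 ± 0.983 and 68.2 ± 1.40 CPM (SD, n = 3), an increase of 0.60 on the log2 scale (SE 0.06, edgeR adjusted p = 1.9e-05). The CDKN1A increase was smaller in H1792 by 1.21 on the log2 scale, with a difference of -1.21 (SE 0.09, edgeR adjusted p = 1.2e-08). CDK2, the kinase that pairs with cyclin E, had log2 fold changes of -2.07 (SE 0.10, edgeR adjusted p = 8.2e-10) in A549 and -0.85 (SE 0.06, edgeR adjusted p = 5.9e-06) in H1792.

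Among targets, the G1/S list of E2F and DREAM held 20 genes. In A549, E2F2 passed the filter only through its DMSO libraries, and the 19 genes that reached the minimum in both groups were all downregulated, with a median log2 fold change of -2.44, beside 17.8% of all genes. In H1792, 16 of the 20 were downregulated, with a median of -0.52, beside 18.8% of all genes. ORC1, a subunit of the origin recognition complex, was the abundant gene of this list with the largest fall in A549 (log2 fold change -4.11, SE 0.18, edgeR adjusted p = 2.5e-10), and RFC4, of the clamp loader, was that of H1792 (-0.86, SE 0.09, edgeR adjusted p = 4.3e-05). Of the 25 genes tested in A549 from the G2/M list of MMB-FOXM1 targets, CCNA2, CDK1, CENPE and DLGAP5 passed the filter only through their DMSO libraries. The other 21 were all downregulated, with a median of -3.11, beside 17.8% of all genes. In H1792, 4 of 26 fell and 4 rose, with a median log2 fold change of 0.00, which is near the shares of 18.8% and 16.2% over all genes. BUB1B, of the spindle checkpoint, had a log2 fold change of -3.71 (SE 0.23, edgeR adjusted p = 1.1e-08) in A549. In H1792 the checkpoint kinase TTK fell (-1.52, SE 0.24, edgeR adjusted p = 4.7e-04) and the mitotic kinesin KIF20A rose (0.51, SE 0.10, edgeR adjusted p = 0.00147). The interaction called a higher log2 fold change in H1792 for 25 of the 26 G2/M genes and for 18 of the 20 G1/S genes, beside 5.37% of all genes. These counts include CCNA2, CDK1, CENPE, DLGAP5 and E2F2, which passed the A549 filter only through their DMSO libraries.

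Of 10 p53 targets, which include CDKN1A, 9 were upregulated in A549 (median log2 fold change 1.46), beside 17.2% of all genes. In H1792, 4 were upregulated and 1 was downregulated (median 0.21), beside 16.2% and 18.8% of all genes. MDM2, the ubiquitin ligase that limits p53, was the abundant gene of this list with the largest rise in A549 (1.95, SE 0.10, edgeR adjusted p = 1.6e-09), and the secreted factor GDF15 was that of H1792 (1.67, SE 0.12, edgeR adjusted p = 6.1e-06). In DMSO, 9 of the 10 were lower in H1792 than in A549, beside 31.9% of all genes, with a median log2 difference of -2.17. Of the MYBL2 paralogs MYB and MYBL1, MYBL1 had a log2 fold change of -0.84 (SE 0.19, edgeR adjusted p = 0.00477) in H1792, where 1 of the 2 genes fell. With a GC content offset neither was called in H1792. In A549, MYBL1 stood at 3.03 to 8.22 CPM with DMSO and at 0.211 to 0.582 CPM with AMG900, and since it passed the filter on low counts only through its DMSO libraries, no call is drawn from it.

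**Figure D5:**
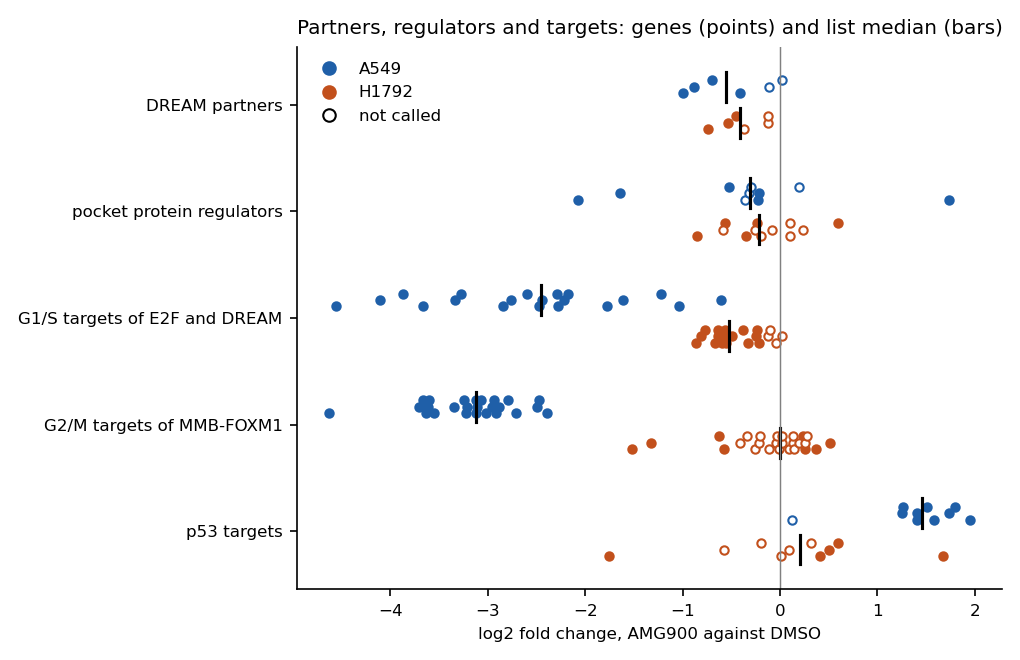
Log2 fold change with AMG900 (x axis) of the genes in 5 lists (y axis), in A549 (blue) and H1792 (orange). Points are genes, filled where the adjusted p is below 0.01, and black bars are list medians. In A549 the G2/M genes that reached the filter's minimum in both groups lie between -3.71 (BUB1B) and -2.47 (TPX2). The points also include 4 G2/M genes that passed the A549 filter only through their DMSO libraries. In H1792 the G2/M list lies around its median of 0.00.

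The genes most like each member were those with the smallest root mean square difference of log2 CPM, each gene centred on its own mean over 14 libraries, among 14768 genes. For MYBL2 they were KIF14 (0.18), BIRC5 (0.20) and PKMYT1 (0.20), beside a median difference of 1.71 over all genes. For FOXM1 they were WDR62 (0.17), ZWINT (0.18) and HMGB2 (0.18), beside a median of 1.37. RBL1 was followed most closely by FKBP5 (0.24), C1orf112 (0.27) and CHAF1B (0.27), LIN9 by PASK (0.34), GMNN (0.36) and TEX30 (0.36), and LIN54 by TUBGCP3 (0.17), CENPO (0.19) and GART (0.23). RB1 was closest to MIER1 (0.27), DNAJB4 (0.28) and VBP1 (0.30), RBL2 to RNF4 (0.10), MAPRE1 (0.10) and USP3 (0.11), LIN37 to SLC39A4 (0.09), CCDC106 (0.11) and RFXANK (0.12), and LIN52 to AFG3L2 (0.23), SLC30A5 (0.23) and HDHD2 (0.23). Within the 9 genes, the closest pairs were RBL1 with FOXM1 and RBL2 with LIN52 (0.43 each), and the most distant pair was MYBL2 and LIN37 (1.75).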

How the data were processed

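RNA was sequenced from 14 libraries. The authors deposited raw counts of reads per gene symbol, without normalization, in 1 table per line. The submitters' processing notes name STAR, HTSeq and hg19 (GRCh37), and counting options and annotation are not given in the sources used here. The labels' protocol gives 3 cultures per treatment and lists 4 for A549, all used. In the H1792 table, 28 entries named by dates (0.101% to 0.117% of counts) were left out.

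Genes were filtered by filterByExpr, scaled by TMM and tested with the edgeR 4.0.16 quasi-likelihood test (R 4.3.3, limma 3.58.1) at an FDR of 0.01, within each line. The difference between lines and the DMSO level came from 1 fit over 14 libraries. The biological coefficient of variation was 12.8% in A549, 9.60% in H1792 and 11.3% over both, and counting error limits genes with few reads. The GC content offset was a natural spline with 5 degrees of freedom per library. Positions, GC content and length of the canonical transcript were taken from GENCODE for GRCh37, with 22371 genes matched by current symbol, 1224 by an older one and 3137 to no single gene. Log2 CPM used a prior count of 2. CPM values within a line used TMM factors of that line, and values per kb or between lines used factors over both lines.

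The 9 genes and the lists were chosen with earlier results of these data known. From each list and line, the called gene with the largest rise and that with the largest fall with 100 counts per library or more on average are named, and RBBP4, E2F4 and CDKN1A always. TTK in A549 did not pass the filter. The 3 genes of most like pattern are named for each member. Alternatives were DESeq2 1.42.0, its size factors in edgeR, total counts, no filter, an FDR of 0.05, a replicate block, a GC content offset, both together, all 14 libraries in 1 fit and each library left out. The fits were checked on simulated counts that held known changes.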

Additional observations from a re-analysis of the deposited data

Results flagged for a closer look

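In the A549 DMSO group, FOXM1 in replicate 1 (180 CPM) lay apart from the other 3 control libraries at 240 to 245 CPM, with a gap of 0.925 of the group's range, above Dixon's 95% critical value for 4 samples. This was 1 of 18 groups of 4 libraries examined, and chance alone flags about 1 in 20. The same library has the smallest total count, and without it 6 of the 9 genes were called lower and 1 higher in A549, as with it. These 6 include LIN9, from whose A549 call no conclusion is drawn. The effect of AMG900 differed between the lines in the interaction test for MYBL2 (difference in log2 fold change, H1792 minus A549, 3.05, edgeR adjusted p = 2.5e-12), FOXM1 (2.71, edgeR adjusted p = 8.1e-12), RBL1 (1.59, edgeR adjusted p = 2.4e-04) and LIN54 (1.07, edgeR adjusted p = 0.00195). For each of these 4 genes all 4 A549 AMG900 libraries were below all 4 A549 DMSO libraries, as for 22.0% of all genes. All 3 H1792 AMG900 libraries were below all 3 H1792 DMSO libraries, as for 29.6% of all genes. LIN54 was not called in H1792 (edgeR adjusted p = 0.0668). With the GC content offset its log2 fold change there was 0.14, and that of RBL1 was -0.10 (edgeR adjusted p = 0.359).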

How the results depend on the processing

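RBL1, LIN54, MYBL2 and FOXM1 in A549, RB1 and MYBL2 in H1792 and the 4 differences between the lines kept direction and call under every alternative run. The GC content offset, alone or with the replicate block, left 4 genes downregulated and 0 upregulated in A549 (edgeR, LIN37 at 0.33), 3 downregulated in H1792, and 1 lower and 1 higher in DMSO. Over all genes the offset alone gave 2466 downregulated and 1817 upregulated of 13174 in A549, and 3460 and 2179 of 15017 in H1792. In H1792 the offset reversed 3 uncalled values, to 0.01 for RBL2, -0.03 for LIN37 and 0.14 for LIN54, and to 0.01, -0.02 and 0.14 with the block. DESeq2 and an FDR of 0.05 each called 7 genes downregulated in A549, with RB1 added. This count includes LIN9, as do some A549 counts below, and no conclusion is drawn from the A549 call of LIN9. In H1792, DESeq2 and an FDR of 0.05 each called 1 gene upregulated, and all 14 libraries in 1 fit left 2 downregulated. Scaling by total counts turned the DMSO level of RB1 and RBL1 from 0.09 each to -0.01 each. With each library left out in turn, downregulated genes numbered 5 to 7 and upregulated 0 to 1 in A549 (0 without DMSO replicate 2). In H1792 they numbered 3 to 6 and 0 to 1, with 3 downregulated without DMSO replicate 3, AMG900 replicate 1 or AMG900 replicate 3 and 1 upregulated without DMSO replicate 1. The interaction called 4 higher and 0 to 1 lower (1 without A549 DMSO replicate 1), and in DMSO 2 to 3 were higher and 0 to 2 lower (1 without A549 DMSO replicate 2 and 0 without H1792 DMSO replicate 1). The difference of LIN52 ranged from -0.37 to 0.04, and the DMSO level from -0.18 to 0.28 for RB1 and from -0.02 to 0.24 for RBL1. The cause of these moves was not tested.

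Replicate numbers did not pair the libraries: deviations of same-numbered libraries correlated between -0.06 and 0.04. With the replicate block, 6 genes were called lower and 1 higher in A549 and 4 lower in H1792, where FOXM1 lost its call, and the other calls were as without it. The 6 in A549 include LIN9, from whose call there no conclusion is drawn. Of the results for single genes under the alternatives that leave out no library, 272 kept direction and call, 20 lost the call, 6 gained one and 8 reversed. Low depth limits RB1, LIN9 and LIN52 in A549, at 3 to 64 reads per library. In H1792 the GC content offset gave 17 downregulated G1/S genes, 8 upregulated and 5 downregulated G2/M genes, 3 upregulated and 2 downregulated p53 targets, 1 upregulated and 6 downregulated pocket protein regulators, 4 downregulated DREAM partners and 0 called MYB paralogs (1 at an unadjusted p under 0.05 and 1 by DESeq2, both without the offset). In A549 it gave 3 downregulated DREAM partners and, over all tested genes of the other lists, the same counts as without it. Those counts include E2F2, CCNA2, CDK1, CENPE, DLGAP5 and MYBL1. These genes passed the A549 filter only through their DMSO libraries, so no conclusion is drawn from their calls. Beside these list counts, the offset gave 3460 downregulated and 2179 upregulated of all 15017 genes in H1792, and 2466 and 1817 of 13174 in A549. Without A549 DMSO replicate 1 the pocket protein regulators gave 2 upregulated and 7 downregulated genes of 11 tested. These list alternatives were chosen after the data were seen.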
